A study of Sus scrofa with 12 samples.

Results

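The 24 h response of cultured aortic valve cells to TGF-β1 was taken from 6 of the 12 arrays of the series, the 3 P2 arrays exposed to TGF-β1 for 24 h and the 3 untreated P2 arrays. The arrays were chosen by their labels alone. The comparison used the 17638 of 23999 probe sets that exceeded log2 4 on at least 3 of the 12 arrays. Positive values mean higher with TGF-β1. The cells were valvular interstitial cells (VICs), the fibroblast-like cells of the valve leaflet, released from aortic valves of adult pigs by collagenase II. P2 denotes cells that had been passaged 2 times on plastic, and both groups were grown out in medium 199 with 15% fetal bovine serum, held on tissue culture plastic in the same medium with 1% serum and harvested on day 3 of culture. The treated cells were exposed for 24 h to the porcine cytokine at 5 ng/ml, whereas the controls received none, and no vehicle is described. The other 6 arrays hold P2 cells given the same dose for 8 h and freshly isolated P0 cells, 3 of each. The labels call the 3 arrays of a group biological replicates without naming animals. The fit removed the mean level of each replicate number. The p-values thus measure how far differences between groups varied among the replicate numbers, with the 8 h arrays included. They do not measure the spread of levels between samples or animals.

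TGF-β1 is a secreted cytokine that binds type II and type I receptor kinases, which phosphorylate Smad2 and Smad3, and these enter the nucleus with Smad4 to change transcription. Its known targets include feedback inhibitors of the pathway, collagens and their processing enzymes, and the contractile proteins of myofibroblasts. In the aortic valve, TGF-β1 is studied as a driver of the myofibroblast state of VICs and of fibrotic and calcific disease. These arrays compare RNA levels in whole cultures, where fewer cells of a type and less RNA per cell cannot be told apart.

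All values are the deposited log2 expression values, and each probe set is named where the platform annotation gave it exactly 1 gene symbol. Among 6014 genes measured through 1 representative probe set each, 609 (10.1%) were higher and 780 (13.0%) lower at 24 h at an adjusted p under 0.05, with a median log2 fold change of -0.01. The counts of list members below are to be read beside these shares of all genes. The lists were chosen with earlier results of these data known, so a difference from these shares is a description and no independent support. At least 2-fold differences were found for 71 of the higher (1.18% of all genes) and 145 of the lower genes (2.41%). The untreated and 24 h arrays did not overlap for 1810 genes (30.1%). Over all probe sets 3519 passed (20.0%), of which 1723 were higher and 1796 lower, and 1733 of these had no single symbol. Without the replicate block 656 probe sets were higher and 633 lower. The fit held the replicate number as a block, because P2 arrays with the same number deviated together. Correlations of deviations from the group means were 0.35 to 0.68 in 9 same-numbered pairs and -0.51 to 0.08 in 18 pairs with different numbers. The deviations of the 3 arrays of a group cancel, so positive values in same-numbered pairs by themselves push those of the other pairs down. Replicate number 3 had the lowest value of each P2 group on the first and second principal components, which carried 36.7% and 27.7% of the variance. Both components also moved with exposure within each replicate number. Array medians over the tested probe sets lay between 7.16 and 7.31. A control level of 4.58, the 95th percentile of the 64 reporter control probe sets, marks where a value cannot be told from background. A fold change against a group mean under that level is given as a lower limit. Values after ± are standard errors of the log2 fold change from the fit with the block, with 3 arrays in each group. Each triple of values follows replicate numbers 1, 2 and 3. Where leaving out 1 array lost the call of a named gene against untreated cells, the log2 fold change then found is given, and where dropping the block or holding it as a random one did, the adjusted p. Other probe sets of a called gene are given where they did not pass or turned the direction.

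The leading rises and falls below were taken from called genes whose treated and untreated arrays did not overlap. Their separation was therefore a condition and not a result. LIF, a cytokine of the interleukin 6 family, had the largest rise among them. Its untreated arrays read 3.95, 4.28 and 4.11, all under the control level, and its 24 h arrays 8.06, 7.71 and 8.54. LIF was therefore at least 11.5-fold higher (log2 fold change 3.99 ± 0.18, adjusted p 7.3e-05). F3, the tissue factor that starts the coagulation cascade, read 6.70, 7.85 and 6.19 without TGF-β1 and 9.36, 9.80 and 10.67 after 24 h. The gap was widest in replicate 3, and F3 rose 8.15-fold (log2 fold change 3.03 ± 0.42, adjusted p 0.0032). PMEPA1, a membrane adaptor that sequesters receptor-activated Smads, went from 10.86, 11.53 and 10.24 to 13.63, 13.43 and 13.67, so that the treated arrays lay close to each other while the untreated ones were spread. The rise was 6.5-fold (log2 fold change 2.70 ± 0.28, adjusted p 0.000959), and the other 4 PMEPA1 probe sets rose by 1.85 to 2.99 on the log2 scale.

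Beside LIF, the secreted factors among the leading rises were BDNF, PTHLH, C1QTNF3 and IGFBP5. BDNF, a neurotrophin, read 5.99, 6.50 and 4.95 in untreated and 8.35, 7.72 and 8.77 in treated arrays (log2 fold change 2.47 ± 0.41, adjusted p 0.00669). PTHLH, the parathyroid hormone-related protein, read 6.69, 6.82 and 6.43 and then 9.24, 9.18 and 8.71 (log2 fold change 2.40 ± 0.10, adjusted p 6.64e-05). BDNF had its lowest and highest values in replicate 3, whereas PTHLH had a nearly equal step in each replicate number. C1QTNF3, a secreted protein with a C1q-like domain, read 7.84, 7.44 and 6.68 without and 10.16, 9.45 and 8.90 with TGF-β1 (log2 fold change 2.19 ± 0.15, adjusted p 0.000213). IGFBP5, an insulin-like growth factor binding protein, read 5.89, 6.37 and 6.45 without and 8.20, 8.15 and 8.74 with TGF-β1 (log2 fold change 2.13 ± 0.17, adjusted p 0.000394). In C1QTNF3 the order of the replicate numbers was the same in both groups. SHAS2, the pig symbol for hyaluronan synthase 2, which makes the matrix polymer hyaluronan, rose 4.44-fold from 7.01, 6.70 and 7.19 to 8.76, 9.34 and 9.26 (log2 fold change 2.15 ± 0.16, adjusted p 0.000259).

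The remaining leading rises were SLC2A5, HTR1D, RNF128 and PLEK2. SLC2A5, the fructose transporter GLUT5, read 8.98, 9.47 and 5.71 without and 11.20, 10.75 and 10.55 with TGF-β1, and most of the difference in replicate 3 came from its low untreated value (log2 fold change 2.78 ± 0.57, adjusted p 0.0143). Without replicate number 3 its log2 fold change was 1.75, still past the threshold, whereas without replicate number 1 its call was lost (3.06, adjusted p 0.0907), as it was with only the arrays of the 2 groups (adjusted p 0.0529). BDNF lost its call without replicate number 1 (2.52, adjusted p 0.0739). HTR1D, a serotonin receptor, read 3.02, 3.11 and 3.11, under the control level, and 5.36, 5.58 and 5.14, at least 1.71-fold higher (log2 fold change 2.28 ± 0.18, adjusted p 0.000371). RNF128, an E3 ubiquitin ligase, read 4.34, 4.96 and 3.70 and 6.001, 6.99 and 6.39, at least 3.67-fold higher (log2 fold change 2.13 ± 0.24, adjusted p 0.00123). PLEK2, a pleckstrin family protein that binds phosphoinositides, read 5.80, 6.26 and 5.74 without and 7.98, 7.98 and 7.76 with TGF-β1 (log2 fold change 1.97 ± 0.15, adjusted p 0.000291). The call of SLC2A5 was lost without the replicate block, at an adjusted p of 0.0881.

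**Figure D1:**
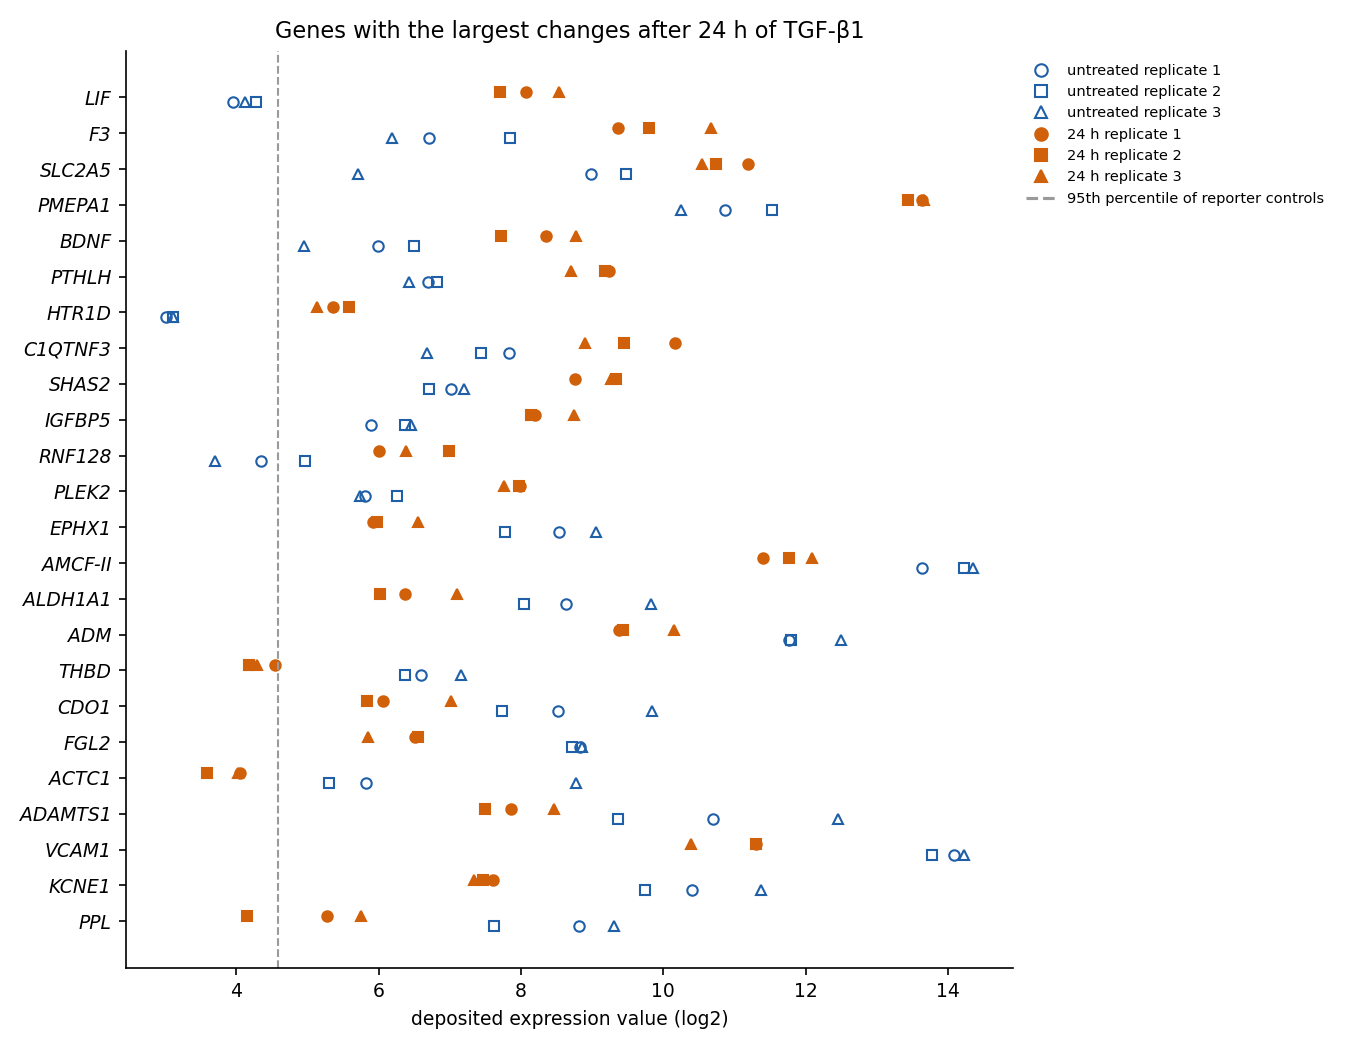
The 24 genes with the largest changes among those called with separate groups, on the deposited log2 scale, with open blue symbols for the 3 untreated arrays, filled orange symbols for the 3 TGF-β1 24 h arrays and a dashed line at the reporter control level of 4.58. The 2 colours do not overlap for any gene shown, which was a condition for showing it, while the distance between replicate numbers within a colour differs from gene to gene (ADAMTS1 untreated arrays run from 9.37 to 12.46).

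PPL, which encodes the desmosome-associated protein periplakin, had the largest fall. Its untreated arrays read 8.82, 7.62 and 9.31 and its treated arrays 5.27, 4.14 and 5.75, an 11.5-fold difference (log2 fold change -3.53 ± 0.10, adjusted p 2.65e-05) whose size was nearly equal in the 3 replicate numbers although their levels differed. KCNE1, an accessory subunit of a voltage-gated potassium channel, read 10.41, 9.74 and 11.37 without and 7.60, 7.47 and 7.34 with TGF-β1 (log2 fold change -3.04 ± 0.31, adjusted p 0.000885). A second KCNE1 probe set, under the control level in both groups, had a log2 fold change of 0.09 that did not pass. VCAM1, the adhesion molecule that binds leukocyte integrins, was high without TGF-β1, at 14.09, 13.78 and 14.23, and read 11.30, 11.31 and 10.39 after 24 h, 8.19-fold lower (log2 fold change -3.03 ± 0.25, adjusted p 0.000403). ADAMTS1, a metalloprotease that cleaves proteoglycans, read 10.70, 9.37 and 12.46 without and 7.85, 7.50 and 8.46 with TGF-β1 (log2 fold change -2.90 ± 0.33, adjusted p 0.0014). In the untreated arrays of both KCNE1 and ADAMTS1, replicate 3 was the highest.

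Among the leading falls were THBD, FGL2, ADM and AMCF-II. THBD, thrombomodulin, an anticoagulant receptor for thrombin, read 6.60, 6.36 and 7.16 and then 4.55, 4.17 and 4.29, under the control level in the treated arrays and at least 4.35-fold lower (log2 fold change -2.37 ± 0.21, adjusted p 0.000557). FGL2, a fibrinogen-like protein, read 8.82, 8.72 and 8.86 without and 6.51, 6.55 and 5.85 with TGF-β1 (log2 fold change -2.50 ± 0.17, adjusted p 0.000213). ADM, the vasodilator peptide adrenomedullin, read 11.77, 11.79 and 12.50 without and 9.38, 9.43 and 10.15 with TGF-β1 (log2 fold change -2.37 ± 0.11, adjusted p 7.3e-05). The step was alike in the 3 replicate numbers for ADM. AMCF-II, a pig CXC chemokine that attracts neutrophils, fell 4.98-fold from 13.63, 14.23 and 14.35 to 11.40, 11.77 and 12.09 (log2 fold change -2.32 ± 0.09, adjusted p 6.64e-05). Its 2 other probe sets had log2 fold changes of -2.24 and -0.47.

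The enzymes ALDH1A1, CDO1 and EPHX1 were further leading falls. ALDH1A1, which makes retinoic acid from retinal, read 8.63, 8.04 and 9.82 without and 6.36, 6.02 and 7.11 with TGF-β1 (log2 fold change -2.34 ± 0.16, adjusted p 0.000221). CDO1, cysteine dioxygenase, read 8.52, 7.74 and 9.84 without and 6.06, 5.83 and 7.02 with TGF-β1 (log2 fold change -2.39 ± 0.16, adjusted p 0.000221). EPHX1, the microsomal epoxide hydrolase, read 8.53, 7.77 and 9.05 without and 5.92, 5.97 and 6.55 with TGF-β1 (log2 fold change -2.31 ± 0.15, adjusted p 0.000194). Replicate 3 had the highest level of all 3 genes in both groups. ACTC1, cardiac α-actin, read 5.82, 5.30 and 8.78 without and 4.05, 3.58 and 4.02 with TGF-β1, at least 4.14-fold lower (log2 fold change -2.75 ± 0.56, adjusted p 0.0144). The untreated replicate 3 array was far above the others, and without that array ACTC1 lost its call (-2.17), as it did without replicate number 1 (-3.24) or number 2 (-3.27). Without the treated replicate 3 array the log2 fold change was -1.83, still past the threshold. The call of ACTC1 was lost without the replicate block, at an adjusted p of 0.122.

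Of the 19 measured ligands, receptors, Smads and inhibitors of the TGF-β pathway, 9 rose and 2 fell (median 0.44), beside 10.1% higher and 13.0% lower of all genes and a median of -0.01. TGFB1 itself, the gene of the ligand added, read 7.54, 7.50 and 6.65 without and 9.02, 8.37 and 8.45 with TGF-β1 and rose 2.6-fold (log2 fold change 1.38 ± 0.16, adjusted p 0.0015). TGFB2, a second ligand, read 8.92, 8.64 and 8.52 without and 9.10, 9.11 and 9.18 with TGF-β1 (log2 fold change 0.44 ± 0.11, adjusted p 0.0262). Among receptors, TGFBR1, the type I TGF-β receptor kinase, went from 10.71, 10.66 and 10.78 to 11.35, 11.50 and 11.18 (log2 fold change 0.62 ± 0.11, adjusted p 0.00716). The activin receptors ACVR2A (0.63 ± 0.11, adjusted p 0.00834) and ACVR1 (0.56 ± 0.13, adjusted p 0.0252) rose as well, whereas ACVR1B, the activin type I receptor, fell from 10.15, 10.38 and 10.25 to 9.37, 9.08 and 9.68 (log2 fold change -0.88 ± 0.16, adjusted p 0.00964). All of these except ENG, the co-receptor endoglin (0.68 ± 0.12, adjusted p 0.00945), had separate groups.

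The extracellular inhibitors moved in opposite directions. FSTL3, a follistatin-like protein that binds activin and myostatin, rose from 8.29, 8.51 and 7.78 to 9.58, 9.33 and 9.63 (log2 fold change 1.32 ± 0.17, adjusted p 0.00228). FST, follistatin, which also binds activin, fell from 6.53, 6.72 and 6.28 to 5.72, 5.52 and 4.90 (log2 fold change -1.13 ± 0.16, adjusted p 0.00356). SMAD3, a signal-carrying Smad, read 6.96, 7.09 and 7.38 without and 6.65, 6.88 and 7.04 with TGF-β1 and did not pass the threshold (log2 fold change -0.29 ± 0.11, adjusted p 0.114). TGFB2, TGFBR1, ACVR2A, ACVR1 and ENG were named after their values were seen. TGFB2 also had a probe set at 0.36 that did not pass. TGFB2 (0.34 to 0.43) and ACVR1 (0.41 to 0.54) lost their calls in 4 of the 6 fits without 1 array. The calls of TGFB2, ACVR1 and ENG were lost without the replicate block, at adjusted p values from 0.0516 to 0.203. No probe set with the single symbol SMAD7, CCN2, TGFBI, COL1A1, ELN, IL11 or NOX4 passed the filter, so these genes were not analysed here.

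Among 14 genes listed as TGF-β induced, 9 rose and 1 fell (median log2 fold change 0.57), and 12 were higher in all 3 replicate numbers, as were 24.3% of all genes. The list shares LIF, PMEPA1 and TGFB1 with the paragraphs above. SNAI1, a zinc-finger repressor of epithelial genes, rose 2.69-fold from 6.62, 6.35 and 5.61 to 7.79, 7.46 and 7.61 (log2 fold change 1.43 ± 0.17, adjusted p 0.00159). BHLHE40, a basic helix-loop-helix repressor, rose from 6.72, 6.40 and 5.99 to 7.23, 6.98 and 7.24 (log2 fold change 0.78 ± 0.15, adjusted p 0.00999), while a second probe set below the control level had a log2 fold change of -0.20 that did not pass. KLF10, the TGF-β inducible early gene, named after its values were seen, rose from 11.55, 11.78 and 11.22 to 12.02, 12.48 and 11.81 (log2 fold change 0.59 ± 0.10, adjusted p 0.0069). POSTN, periostin, read 12.66, 12.51 and 12.50 without and 12.89, 13.58 and 12.65 with TGF-β1, with most of its difference in replicate 2, and did not pass (log2 fold change 0.48 ± 0.17, adjusted p 0.0911). With an intensity trend and robust prior in limma POSTN did pass (adjusted p 0.0339). TIMP3, an inhibitor of metalloproteases bound to matrix, was the member that fell (-0.77 ± 0.10, adjusted p 0.0028). TIMP3 also had a probe set at -0.38 that did not pass. The calls of KLF10 and TIMP3 were lost without the replicate block, at adjusted p values from 0.127 to 0.533, and that of TIMP3 was lost too with the replicate number as a random block (adjusted p 0.197).

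Of the 34 measured contractile and cytoskeletal genes of myofibroblasts, 2 rose (5.88%) and 5 fell (14.7%), beside 10.1% and 13.0% of all genes (median -0.02). ACTA2, smooth muscle α-actin, the usual myofibroblast marker, read 15.24, 15.36 and 15.38 in untreated and 15.14, 15.35 and 15.25 in treated arrays, with overlapping groups (log2 fold change -0.08 ± 0.08, adjusted p 0.539). TAGLN, the actin-binding protein SM22α, read 14.83, 14.74 and 14.75 without and 14.86, 14.79 and 14.85 with TGF-β1 (log2 fold change 0.06 ± 0.08, adjusted p 0.65). These values lay close to the highest of any probe set on any array, 15.95, and whether the signal was still linear there was not tested. CNN1, calponin 1, read 11.56, 11.73 and 11.61 without and 11.88, 11.98 and 11.76 with TGF-β1, separate by a small step that did not pass (log2 fold change 0.24 ± 0.08, adjusted p 0.0777). MYL9, a myosin regulatory light chain, read 10.87, 10.87 and 10.69 without and 10.71, 10.64 and 10.43 with TGF-β1 (log2 fold change -0.22 ± 0.08, adjusted p 0.0901). TPM1, tropomyosin 1, had a log2 fold change of 0.15 with adjusted p 0.224. With an intensity trend and robust prior in limma, CNN1 and TPM1 passed as rises (adjusted p 0.0191 and 0.0158). MYL9 passed as a fall there (adjusted p 0.0356). CNN1 passed too with the filter at log2 6 (adjusted p 0.0478).

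CSRP2, a LIM-domain protein of smooth muscle, read 11.13, 11.38 and 10.48 without and 12.78, 13.14 and 12.04 with TGF-β1, a 3.16-fold rise of nearly equal size in each replicate number (log2 fold change 1.66 ± 0.09, adjusted p 8.39e-05). PDLIM7, another LIM protein, was the other member that rose (0.32 ± 0.09, adjusted p 0.048). ACTG2, enteric γ-actin, fell from 9.94, 9.92 and 10.62 to 9.35, 9.33 and 9.44 (log2 fold change -0.78 ± 0.15, adjusted p 0.0121). FHL1, a LIM-only protein, fell from 12.85, 12.86 and 13.14 to 12.54, 12.34 and 12.34 (log2 fold change -0.55 ± 0.11, adjusted p 0.0117), TPM2, tropomyosin 2, fell (-0.42 ± 0.09, adjusted p 0.016), and ACTC1 and CALD1, caldesmon (-0.27 ± 0.08, adjusted p 0.0488), were the remaining falls. PDLIM7 and CALD1 were named after their values were seen. ACTG2 also had a probe set at -0.06, TPM2 at -0.04 and 0.05 and CALD1 at -0.23, none past the threshold. ACTG2 lost its call without untreated replicate 3 (-0.71) and TPM2 lost its call without untreated replicate 1 (-0.42) and untreated replicate 3 (-0.38). PDLIM7 (0.25 to 0.35) and CALD1 (-0.30 to -0.24) lost their calls in 6 of the 6 fits without 1 array. The calls of PDLIM7, ACTG2 and CALD1 were lost without the replicate block, at adjusted p values from 0.1 to 0.298, and that of PDLIM7 was lost too with the replicate number as a random block (adjusted p 0.0883). With 1 array left out the number of contractile members that fell was 1 to 4, moving by over 1.5 times without untreated replicate 1 (3) and untreated replicate 3 (1). In the contractile list 2 rises became 1 without 24 h replicate 1 or 3 or untreated replicate 1, 2 or 3.

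Collagen genes differed among themselves in direction. Of 13 measured chains, 5 rose and 1 fell (median 0.18). COL5A1, a chain of the fibril-regulating collagen V, rose from 12.32, 12.79 and 12.23 to 13.53, 13.23 and 13.51 (log2 fold change 0.97 ± 0.16, adjusted p 0.00589). COL8A1, a short-chain collagen of vessels and valves, rose from 12.80, 12.85 and 12.38 to 13.38, 13.17 and 13.37 (log2 fold change 0.63 ± 0.13, adjusted p 0.0153). COL5A3 (0.63 ± 0.14, adjusted p 0.022) and COL7A1, the anchoring fibril collagen, close to the control level (0.55 ± 0.14, adjusted p 0.0287), rose as well. COL1A2, a chain of the main fibrillar collagen I, read 9.17, 9.24 and 8.74 without and 9.43, 9.65 and 9.22 with TGF-β1, a small rise with overlapping groups (log2 fold change 0.38 ± 0.09, adjusted p 0.0258). COL3A1, the collagen III chain, fell 2.21-fold from 5.79, 5.60 and 6.41 to 4.31, 4.74 and 5.31 (log2 fold change -1.14 ± 0.13, adjusted p 0.00157), on a dim probe set. COL5A1 also had a probe set at -0.05, COL8A1 at 0.55 and 0.33, COL5A3 at 0.08 and 0.15 and COL1A2 at 0.40, none past the threshold. COL8A1 (0.53 to 0.66) and COL5A3 (0.46 to 0.57) lost their calls in 3 of the 6 fits without 1 array. COL7A1 (0.42 to 0.63) and COL1A2 (0.31 to 0.41) lost their calls in 5 of the 6 fits without 1 array. The calls of COL5A3, COL7A1 and COL1A2 were lost without the replicate block, at adjusted p values from 0.0744 to 0.618, and that of COL5A3 was lost too with the replicate number as a random block (adjusted p 0.3). The number of chains that rose with 1 array left out was 1 to 4, moving by over 1.5 times without 24 h replicate 1 (1), 24 h replicate 3 (2), untreated replicate 1 (2), untreated replicate 2 (3) and untreated replicate 3 (3). In the collagen chain list 1 fall became 2 without untreated replicate 2.

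Of 14 measured genes that modify, fold or cross-link collagen, 8 rose and 0 fell (median 0.38). PCOLCE2, which enhances removal of the procollagen C-propeptide, rose 2.72-fold from 11.51, 10.99 and 11.47 to 12.78, 12.60 and 12.93 (log2 fold change 1.44 ± 0.09, adjusted p 0.00018). P4HA2, a catalytic subunit of prolyl 4-hydroxylase, rose from 11.44, 11.35 and 10.64 to 12.25, 11.79 and 11.65 (log2 fold change 0.75 ± 0.12, adjusted p 0.005). LOX, lysyl oxidase, which cross-links collagen and elastin, rose from 12.33, 12.24 and 11.92 to 12.88, 12.82 and 12.59 (log2 fold change 0.60 ± 0.09, adjusted p 0.00374). The coat protein gene SEC23A (0.72 ± 0.08, adjusted p 0.00149), the collagen chaperones SERPINH1 (0.45 ± 0.09, adjusted p 0.0143) and FKBP10 (0.47 ± 0.11, adjusted p 0.0249), the lysyl hydroxylase PLOD3 (0.36 ± 0.10, adjusted p 0.0473) and LOXL1 (0.37 ± 0.09, adjusted p 0.0287) rose by smaller steps. For all 8 genes the treated and untreated arrays were separate. Separate groups were found for 30.1% of all genes, but these 8 had already been called, so the shares cannot be compared. SERPINH1, PLOD3 and LOXL1 were named after their values were seen. LOX also had a probe set at -0.03 that did not pass. SERPINH1 lost its call without 24 h replicate 1 (0.46) and untreated replicate 3 (0.38). FKBP10 (0.37 to 0.46), PLOD3 (0.29 to 0.32) and LOXL1 (0.31 to 0.38) lost their calls in 4 of the 6 fits without 1 array. The calls of P4HA2, SERPINH1, FKBP10, PLOD3 and LOXL1 were lost without the replicate block, at adjusted p values from 0.0518 to 0.191, and that of PLOD3 was lost too with the replicate number as a random block (adjusted p 0.0548). The count of rises with 1 array left out was 4 to 9, moving by over 1.5 times without 24 h replicate 1 (4), untreated replicate 1 (5) and untreated replicate 3 (5).

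Matricellular proteins, which sit in the matrix and signal to cells, had 5 rises and 2 falls among 13 measured genes (median 0.20). TNC, tenascin C, went from 9.67, 9.91 and 9.82 to 11.64, 11.33 and 11.74, a 3.4-fold rise (log2 fold change 1.77 ± 0.12, adjusted p 0.000224). The thrombospondins THBS1 (13.37, 13.61 and 13.32 to 13.80, 14.37 and 14.11, 0.66 ± 0.10, adjusted p 0.00427), THBS2 (0.91 ± 0.15, adjusted p 0.0062) and THBS3 (0.69 ± 0.19, adjusted p 0.0406) rose. FN1, fibronectin, read 14.55, 14.68 and 14.42 without and 15.21, 15.20 and 15.07 with TGF-β1 (log2 fold change 0.61 ± 0.08, adjusted p 0.0022). A second and dimmer FN1 probe set had a log2 fold change of 1.58, and another had 0.09 and did not pass. SPARCL1, an anti-adhesive glycoprotein related to SPARC, fell 3.06-fold from 8.86, 8.11 and 9.88 to 7.31, 6.79 and 7.91 (log2 fold change -1.62 ± 0.12, adjusted p 0.000305), and SPP1, osteopontin, fell by a small step (-0.31 ± 0.09, adjusted p 0.0432). THBS1 also had probe sets at 0.21, 0.49 and 0.09 and THBS3 at 0.64 and 0.09, none past the threshold. THBS3 (0.47 to 0.71) lost its call in 4 of the 6 fits without 1 array. SPP1 (-0.38 to -0.26) lost its call in 6 of the 6 fits without 1 array. The calls of THBS3, SPARCL1 and SPP1 were lost without the replicate block, at adjusted p values from 0.0894 to 0.52, and that of SPP1 was lost too with the replicate number as a random block (adjusted p 0.209). Without replicate number 3 the log2 fold change of THBS3 was 0.43. In the matricellular list 2 falls became 1 without any 1 of the 6 arrays.

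Of 18 measured proteoglycan and hyaluronan genes, 5 rose (27.8%) and 2 fell (11.1%), with a median of 0.10. ASPN, asporin, a small leucine-rich proteoglycan that binds TGF-β, rose 3.28-fold from 11.28, 10.74 and 11.15 to 12.97, 12.58 and 12.77 (log2 fold change 1.71 ± 0.09, adjusted p 7.94e-05). CHSY1, a chondroitin sulfate synthase, rose from 11.30, 11.53 and 10.82 to 12.36, 12.34 and 12.13 (log2 fold change 1.06 ± 0.11, adjusted p 0.000863). BGN, biglycan, rose from 13.73, 13.84 and 13.58 to 14.35, 14.18 and 14.29 (log2 fold change 0.56 ± 0.10, adjusted p 0.00754), as did B4GALT7, an enzyme of the glycosaminoglycan linker (0.58 ± 0.14, adjusted p 0.0256). VCAN, versican, the large hyaluronan-binding proteoglycan of the valve, read 11.37, 11.83 and 11.70 without and 11.64, 12.04 and 11.48 with TGF-β1 and did not pass (log2 fold change 0.09 ± 0.12, adjusted p 0.661). Elastic fibre and microfibril genes had 2 rises and 4 falls among 8. FBLN1, fibulin 1, fell from 10.73, 10.22 and 10.58 to 9.92, 9.48 and 9.85 (log2 fold change -0.76 ± 0.07, adjusted p 0.000773), and EMILIN2, an elastin-associated glycoprotein, fell (-0.77 ± 0.08, adjusted p 0.000979). The other falls in that list were MFGE8 (-0.41 ± 0.08, adjusted p 0.0155) and EFEMP2, fibulin 4 (-0.34 ± 0.09, adjusted p 0.0315), and the rises were FBN1, fibrillin 1 (0.35 ± 0.10, adjusted p 0.0466), and MFAP3 (0.38 ± 0.11, adjusted p 0.047).

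EFEMP2 also had probe sets at -0.24 and -0.19, none past the threshold. MFGE8 lost its call without 24 h replicate 1 (-0.42) and untreated replicate 3 (-0.34). B4GALT7 (0.40 to 0.61) lost its call in 4 of the 6 fits without 1 array. EFEMP2 (-0.37 to -0.31), FBN1 (0.26 to 0.42) and MFAP3 (0.31 to 0.43) lost their calls in 5 of the 6 fits without 1 array. The calls of B4GALT7, EMILIN2, MFGE8, EFEMP2, FBN1 and MFAP3 were lost without the replicate block, at adjusted p values from 0.0595 to 0.365, and those of MFGE8, EFEMP2 and FBN1 were lost too with the replicate number as a random block (adjusted p 0.0539 to 0.0973). EFEMP2 was named after its values were seen. In the proteoglycan list 2 falls became 0 without 24 h replicate 1 or untreated replicate 1, 2 or 3 and 1 without 24 h replicate 2 or 3. In the elastic fibre list 2 rises became 0 without 24 h replicate 1 or untreated replicate 1, 2 or 3 and 1 without 24 h replicate 2 or 3, and 4 falls became 2 without untreated replicate 3.

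Matrix proteases and their inhibitors had 1 rise and 6 falls among 16 measured genes (median -0.22). ADAMTS6, a metalloprotease related to ADAMTS1, rose 2.34-fold from 6.05, 6.32 and 6.13 to 7.39, 7.31 and 7.48 (log2 fold change 1.23 ± 0.12, adjusted p 0.00068), opposite in direction to ADAMTS1. SERPINE2, protease nexin 1, an inhibitor of thrombin and plasminogen activators, fell from 14.14, 14.24 and 14.67 to 13.65, 13.41 and 13.996 (log2 fold change -0.66 ± 0.09, adjusted p 0.00341). PLAU, the urokinase plasminogen activator, fell from 11.21, 10.55 and 10.85 to 10.34, 10.35 and 9.24, lowest in treated replicate 3 (log2 fold change -0.89 ± 0.23, adjusted p 0.0326). Without replicate number 3 the log2 fold change of PLAU was -0.53. The number of falls with 1 array left out was 3 to 5, moving by over 1.5 times without 24 h replicate 3 (3), untreated replicate 1 (3) and untreated replicate 3 (3).

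Coagulation and fibrinolysis genes had 3 rises and 8 falls among 18 (median -0.24). Beside F3, PTGS2, the inducible prostaglandin synthase (10.45, 9.68 and 10.06 to 11.25, 10.36 and 11.59, 1.01 ± 0.17, adjusted p 0.00744), and TFPI2, a Kunitz-type protease inhibitor (0.54 ± 0.15, adjusted p 0.0404), rose. TFPI, the inhibitor of the tissue factor pathway, fell from 7.39, 7.17 and 5.15 to 5.83, 5.68 and 4.32 (log2 fold change -1.29 ± 0.19, adjusted p 0.00406), with replicate 3 lower than the others in both groups. ENTPD1 (CD39), which degrades ATP and ADP at the cell surface, fell from 6.34, 6.28 and 3.996 to 4.94, 5.36 and 3.23, at least 1.94-fold lower (log2 fold change -1.03 ± 0.17, adjusted p 0.00571). F3, PTGS2 and the protease inhibitor TFPI2 were thus higher, while THBD, TFPI and ENTPD1 were among the 8 lower genes. The groups overlapped for TFPI and ENTPD1. VWF, von Willebrand factor, an endothelial product, was under the control level in both groups. TFPI2 was named after its values were seen. PLAU (-0.92 to -0.60) and TFPI2 (0.40 to 0.50) lost their calls in 4 of the 6 fits without 1 array. The calls of SERPINE2, PLAU, PTGS2, TFPI, ENTPD1 and TFPI2 were lost without the replicate block, at adjusted p values from 0.0695 to 0.476, and those of TFPI and ENTPD1 were lost too with the replicate number as a random block (adjusted p 0.0949 to 0.157). The number of falls with 1 array left out was 5 to 8, moving by over 1.5 times without 24 h replicate 1 (5) and untreated replicate 3 (5).

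Growth factors and hormones split, with 5 rises and 8 falls among 25 measured genes (median -0.24). Beside BDNF, PTHLH and IGFBP5, VEGFA, the main angiogenic growth factor, rose 3.12-fold from 10.78, 11.15 and 10.10 to 12.28, 12.19 and 12.49 (log2 fold change 1.64 ± 0.22, adjusted p 0.00252). Its 2 other probe sets rose by 1.49 and 0.46. HBEGF, a ligand of the EGF receptor, rose from 5.55, 5.39 and 5.87 to 6.29, 5.66 and 7.11 (log2 fold change 0.75 ± 0.21, adjusted p 0.0422). FGF7, the keratinocyte growth factor made by stromal cells, fell 2.68-fold from 7.66, 7.32 and 7.19 to 5.88, 5.82 and 6.20 (log2 fold change -1.42 ± 0.17, adjusted p 0.0018). IGF1, insulin-like growth factor 1, fell from 12.11, 12.16 and 12.43 to 11.07, 11.43 and 11.40 (log2 fold change -0.93 ± 0.10, adjusted p 0.00114). The groups were separate for VEGFA, FGF7 and IGF1. HBEGF, FGF7 and IGF1 were named after their values were seen. IGF1 also had a probe set at -0.25 that did not pass. HBEGF (0.46 to 0.85) lost its call in 5 of the 6 fits without 1 array. The call of HBEGF was lost without the replicate block, at an adjusted p of 0.188, and it was lost too with the replicate number as a random block (adjusted p 0.0536). The number of falls with 1 array left out was 3 to 7, moving by over 1.5 times without 24 h replicate 1 (5), untreated replicate 1 (3) and untreated replicate 3 (4).

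Of 25 measured cytokine, chemokine and NF-κB genes, 2 rose and 9 fell (median -0.27). The rises were LIF and CXCL8, a neutrophil chemokine (10.45, 11.51 and 9.77 to 10.73, 12.19 and 11.55, 0.91 ± 0.25, adjusted p 0.0385). IL6, which shares its signalling receptor with LIF, fell 2.07-fold from 11.82, 11.80 and 11.06 to 10.50, 10.46 and 10.57 (log2 fold change -1.05 ± 0.20, adjusted p 0.0113). CCL8, a chemokine for monocytes, fell from 6.86, 7.31 and 6.59 to 5.87, 5.92 and 5.18 (log2 fold change -1.26 ± 0.14, adjusted p 0.00119). CXCL2 (-0.997 ± 0.11, adjusted p 0.00132), IL15, a cytokine for lymphocytes (-1.06 ± 0.27, adjusted p 0.0314), and NFKBIA, the NF-κB inhibitor that NF-κB itself induces (9.76, 9.96 and 9.92 to 9.07, 9.02 and 8.48, -1.02 ± 0.14, adjusted p 0.00334), fell as well. LIF and IL6 thus moved in opposite directions in the same arrays. The groups of IL6 were separate, as those of LIF had to be for its place among the leading rises. CXCL8, CXCL2 and NFKBIA were named after their values were seen. IL6 lost its call without 24 h replicate 1 (-0.93) and untreated replicate 1 (-0.97). CXCL8 (0.56 to 1.04) lost its call in 4 of the 6 fits without 1 array. IL15 (-1.17 to -0.68) lost its call in 5 of the 6 fits without 1 array. The calls of CXCL8 and CXCL2 were lost without the replicate block, at adjusted p values from 0.164 to 0.319, and that of CXCL8 was lost too with the replicate number as a random block (adjusted p 0.0945). The number of falls with 1 array left out was 4 to 8, moving by over 1.5 times without untreated replicate 1 (4). In the cytokine list 2 rises became 1 without 24 h replicate 2 or 3 or untreated replicate 2.

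Adhesion genes changed in both directions, 6 up and 9 down of 22 measured (median -0.15). The integrin subunits that bind fibronectin and collagen were among the rises. ITGA5, the fibronectin receptor subunit, went from 9.05, 9.39 and 7.89 to 10.89, 10.55 and 10.36, a 3.54-fold rise (log2 fold change 1.82 ± 0.21, adjusted p 0.00147). ITGAV, a subunit of the integrins that activate latent TGF-β, rose from 9.34, 9.30 and 8.66 to 10.23, 10.59 and 9.54 (log2 fold change 1.01 ± 0.10, adjusted p 0.000874). ITGA2, a collagen receptor subunit, rose from under the control level, at least 1.54-fold (1.19 ± 0.12, adjusted p 0.000737). CDH11, the mesenchymal cadherin of fibroblasts, rose 1.99-fold from 11.09, 11.52 and 10.78 to 12.12, 12.45 and 11.79 (log2 fold change 0.995 ± 0.08, adjusted p 0.000432). ICAM1, a ligand of leukocyte integrins, rose from 9.45, 9.79 and 9.04 to 10.81, 10.54 and 10.33 (log2 fold change 1.13 ± 0.13, adjusted p 0.00134), opposite to VCAM1. CLDN11, a tight junction protein, fell 4.07-fold from 8.43, 8.67 and 9.08 to 6.48, 6.42 and 7.20 (log2 fold change -2.03 ± 0.10, adjusted p 8.04e-05).

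All of these genes had separate groups. NCAM1 was the sixth rise (0.48 ± 0.13, adjusted p 0.0437). ITGAV, ITGA2, ICAM1, CDH11 and NCAM1 were named after their values were seen. NCAM1 also had probe sets at 0.40, 0.19 and 0.34, none past the threshold. NCAM1 (0.34 to 0.49) lost its call in 4 of the 6 fits without 1 array. The calls of ITGAV, ITGA2 and NCAM1 were lost without the replicate block, at adjusted p values from 0.063 to 0.284, and that of NCAM1 was lost too with the replicate number as a random block (adjusted p 0.0829). The basement membrane list had 1 rise, LAMB1, a laminin chain (0.45 ± 0.11, adjusted p 0.0247), and 2 falls, LAMB2, another laminin β chain (9.39, 9.28 and 9.54 to 8.72, 8.35 and 9.03, -0.71 ± 0.11, adjusted p 0.00418), and FBLN1, among 7. LAMB1 (0.36 to 0.44) lost its call in 4 of the 6 fits without 1 array. The call of LAMB1 was lost without the replicate block, at an adjusted p of 0.166. In the basement membrane list 1 rise became 0 without 24 h replicate 1 or 3 or untreated replicate 1 or 3.

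The BMP branch of the family, which signals through Smad1 and induces the ID genes, had 3 rises and 3 falls among 14 measured genes. BMPR1B, a BMP type I receptor, rose 3.75-fold from 5.86, 6.05 and 4.99 to 7.70, 7.64 and 7.29 (log2 fold change 1.91 ± 0.17, adjusted p 0.000556). HTRA1, a secreted protease that dampens TGF-β family signals, rose from 12.56, 12.49 and 11.87 to 13.45, 13.18 and 12.87 (log2 fold change 0.85 ± 0.09, adjusted p 0.00111). ID1, an inhibitor of basic helix-loop-helix factors, fell 2.79-fold (log2 fold change -1.48 ± 0.19, adjusted p 0.0025), from 11.61, 10.49 and 12.16 to 9.76, 9.16 and 10.90, so that the lowest untreated array lay under the highest treated one although every replicate number fell. ID3, a paralog of ID1, read 14.08, 13.90 and 14.11 without and 13.85, 13.69 and 13.92 with TGF-β1 and did not pass (log2 fold change -0.21 ± 0.07, adjusted p 0.0886). With an intensity trend and robust prior in limma ID3 did pass (adjusted p 0.00362). BMP4, a BMP ligand, fell (-0.70 ± 0.13, adjusted p 0.0106), and TMEM100, a membrane protein of the BMP9 and BMP10 response, fell at least 1.69-fold (-1.51 ± 0.36, adjusted p 0.025), with its highest value in untreated replicate 3. Without untreated replicate 3 the TMEM100 value was -0.92, still past the threshold. BMP4 was named after its values were seen. BMP4 lost its call without 24 h replicate 1 (-0.65). TMEM100 (-1.65 to -1.24) lost its call in 3 of the 6 fits without 1 array. The calls of HTRA1, ID1, BMP4 and TMEM100 were lost without the replicate block, at adjusted p values from 0.0503 to 0.371, and that of BMP4 was lost too with the replicate number as a random block (adjusted p 0.098). The number of falls with 1 array left out was 1 to 3, moving by over 1.5 times without 24 h replicate 1 (1).

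Among 35 measured transcription factors of mesenchymal cells, 8 rose (22.9%) and 4 fell (11.4%), beside 10.1% and 13.0% of all genes. CREB3L2, a membrane-bound activator of secretory pathway genes, rose from 8.71, 9.11 and 8.85 to 9.74, 9.77 and 10.20 (log2 fold change 1.01 ± 0.15, adjusted p 0.00393). FOXS1, a forkhead factor, rose from 8.06, 7.91 and 7.47 to 9.10, 8.58 and 8.74 (log2 fold change 0.99 ± 0.13, adjusted p 0.00253). HES1, a Notch-responsive repressor, rose in every replicate number with overlapping groups (0.97 ± 0.15, adjusted p 0.00425). CEBPD, a factor of the acute-phase response, fell 2.12-fold from 12.43, 12.34 and 12.94 to 11.57, 11.20 and 11.69 (log2 fold change -1.08 ± 0.10, adjusted p 0.000615). PRRX1, a homeobox factor of mesenchyme, fell from 13.35, 13.37 and 13.55 to 12.83, 12.83 and 13.03 (log2 fold change -0.52 ± 0.07, adjusted p 0.00341), and KLF15 fell (-0.93 ± 0.20, adjusted p 0.0181). KLF15 was named after its values were seen. The Notch list had 2 rises, HES1 and the ligand JAG1 (10.03, 10.27 and 10.32 to 10.62, 10.92 and 10.83, 0.58 ± 0.09, adjusted p 0.00384), and 1 fall, LFNG, a glycosyltransferase of Notch (-0.41 ± 0.12, adjusted p 0.0494), among 6. The Wnt list had 1 rise, the receptor FZD2 (7.87, 7.53 and 7.98 to 8.64, 8.39 and 8.91, 0.85 ± 0.09, adjusted p 0.00111), and 2 falls, TCF7L1 (-0.41 ± 0.08, adjusted p 0.0112) and TCF7L2 (-0.59 ± 0.16, adjusted p 0.0421), among 13. CEBPD also had a probe set at -0.34, JAG1 at 0.22, LFNG at -0.19 and TCF7L2 at -0.49, none past the threshold. KLF15 lost its call without 24 h replicate 2 (-0.89) and 24 h replicate 3 (-0.76). TCF7L2 (-0.55 to -0.44) lost its call in 4 of the 6 fits without 1 array. LFNG (-0.48 to -0.30) lost its call in 6 of the 6 fits without 1 array. The calls of HES1, LFNG and TCF7L2 were lost without the replicate block, at adjusted p values from 0.066 to 0.113. In the Notch list 1 fall became 0 without 24 h replicate 1 or 3 or untreated replicate 1, 2 or 3. In the Wnt list 2 falls became 1 without 24 h replicate 2 or 3 or untreated replicate 2 or 3.

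**Figure D2:**
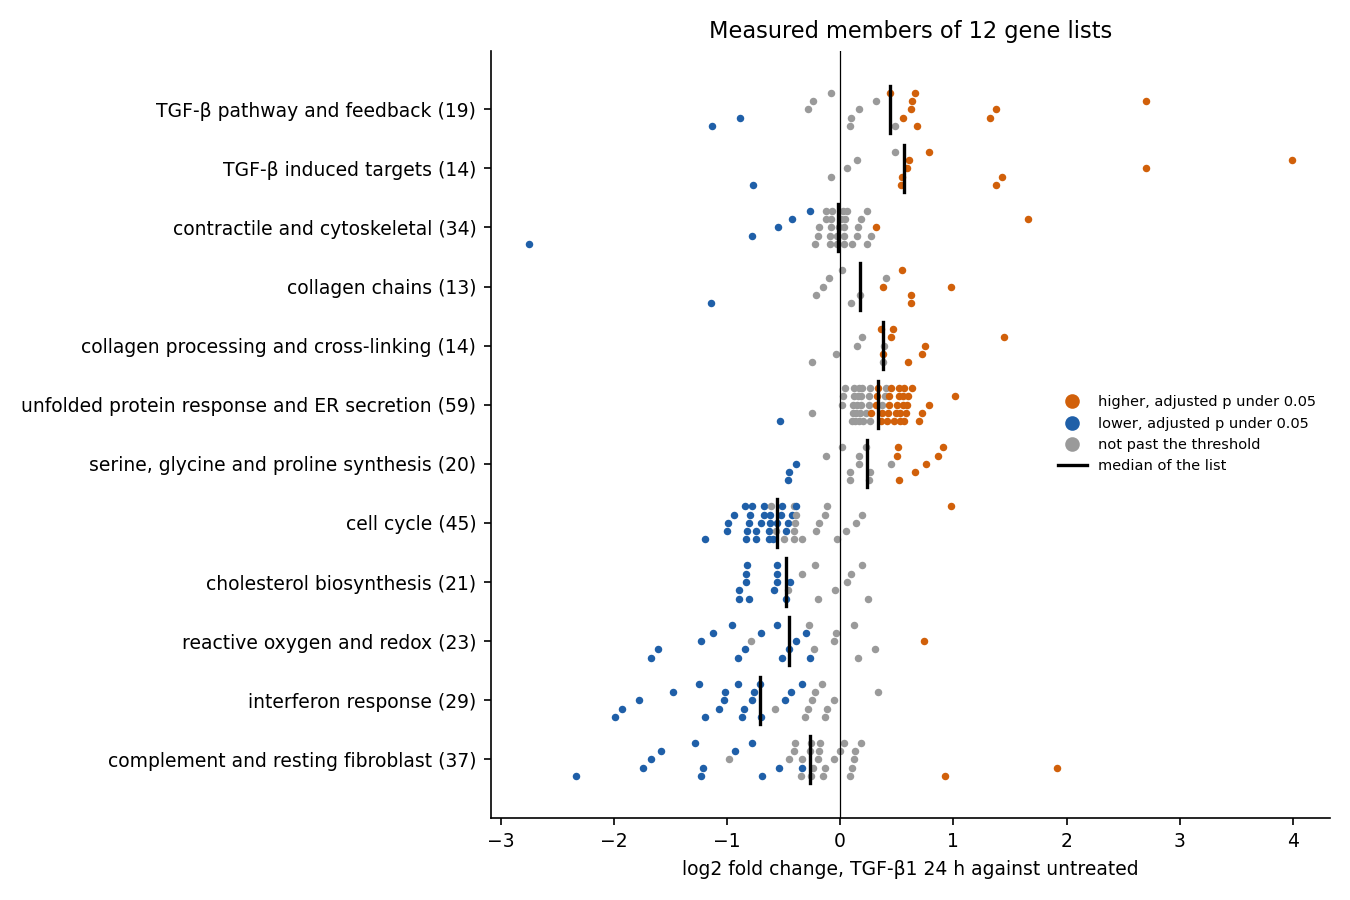
Log2 fold changes of the measured members of 12 gene lists, TGF-β1 24 h against untreated P2 cells, with the number measured in parentheses, orange and blue points for members past the threshold, grey points for the others and a black bar at each median. The points of the secretory list lie mostly to the right of 0 (median 0.33), those of the cell cycle, cholesterol, redox and interferon lists mostly to the left (medians -0.56, -0.48, -0.45 and -0.71), and the contractile list is centred at -0.02.

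The secretory list held 59 measured genes of the unfolded protein response, protein entry into the endoplasmic reticulum, folding and export to the Golgi. Of these, 30 rose and 1 fell (median 0.33), and 48 were higher in all 3 replicate numbers, as were 24.3% of all genes. The list median within replicate numbers 1, 2 and 3 was 0.33, 0.28 and 0.31. MANF, a secreted factor of the endoplasmic reticulum stress response, rose from 12.04, 12.12 and 11.91 to 12.65, 12.82 and 12.69 (log2 fold change 0.70 ± 0.09, adjusted p 0.00231). SSR3, a subunit of the translocon-associated complex, rose from 11.18, 11.24 and 11.05 to 11.76, 11.91 and 11.69 (log2 fold change 0.63 ± 0.08, adjusted p 0.00238). SEC24D, a cargo-selecting coat protein, rose from 9.88, 10.06 and 9.87 to 10.42, 10.55 and 10.52 (log2 fold change 0.56 ± 0.09, adjusted p 0.00676). HYOU1, a chaperone of the HSP70 class (0.79 ± 0.15, adjusted p 0.0105), SEC61A1, the channel subunit of the translocon (0.59 ± 0.14, adjusted p 0.0269), KDELR2, a retrieval receptor (0.52 ± 0.10, adjusted p 0.0122), SDF2L1 (0.60 ± 0.13, adjusted p 0.0189) and HSPA5, the chaperone BiP (14.43, 14.67 and 14.37 to 14.85, 14.92 and 14.81, 0.37 ± 0.08, adjusted p 0.0203), rose as well. Except for SDF2L1 their groups were separate. ERGIC1, of the compartment between endoplasmic reticulum and Golgi, was the fall (-0.53 ± 0.09, adjusted p 0.00765).

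The number of secretory members past the threshold moved with the arrays kept. The count of rises with 1 array left out was 14 to 24, moving by over 1.5 times without 24 h replicate 1 (14), untreated replicate 1 (18) and untreated replicate 3 (16). It was 13 without the replicate block, 2 without replicate number 1 and 13 without replicate number 3, while the list median lay between 0.28 and 0.35 in all alternatives run. ERGIC1 also had probe sets at -0.40 and -0.04, none past the threshold. HYOU1 lost its call without 24 h replicate 1 (0.72) and untreated replicate 1 (0.73). SDF2L1 (0.44 to 0.55) lost its call in 3 of the 6 fits without 1 array. SEC61A1 (0.48 to 0.51) and HSPA5 (0.32 to 0.36) lost their calls in 4 of the 6 fits without 1 array. The calls of HYOU1, SEC61A1, SDF2L1 and HSPA5 were lost without the replicate block, at adjusted p values from 0.0607 to 0.24, and that of SDF2L1 was lost too with the replicate number as a random block (adjusted p 0.0539). SEC24D, SEC61A1, KDELR2, SDF2L1, HSPA5 and ERGIC1 were named after their values were seen.

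Enzymes that make serine, glycine and proline, residues abundant in collagen, and their partners in one-carbon metabolism had 7 rises and 3 falls among 20 (median 0.24). ALDH18A1 and PYCR1, which carry out the first and last steps of proline synthesis from glutamate, rose from 11.004, 11.26 and 10.90 to 11.80, 11.86 and 11.76 (log2 fold change 0.75 ± 0.11, adjusted p 0.0041) and from 9.78, 9.73 and 9.27 to 10.44, 9.98 and 10.34 (log2 fold change 0.66 ± 0.15, adjusted p 0.02). MTHFD2, a mitochondrial folate enzyme, rose from 10.42, 10.42 and 9.86 to 11.02, 11.33 and 10.95 (log2 fold change 0.87 ± 0.11, adjusted p 0.00194). CTH, the cystathionine γ-lyase, rose from 9.54, 10.10 and 9.35 to 10.43, 10.60 and 10.68 (log2 fold change 0.91 ± 0.15, adjusted p 0.00563). PSPH (0.52 ± 0.11, adjusted p 0.0189), ASNS (0.51 ± 0.14, adjusted p 0.0397) and ALDH1L2 (0.51 ± 0.10, adjusted p 0.0112) were the other rises, and all 7 had separate groups. ASNS and ALDH1L2 were named after their values were seen, and without replicate number 3 the ASNS value was 0.29. ALDH1L2 lost its call without 24 h replicate 1 (0.47) and untreated replicate 1 (0.45). PSPH (0.49 to 0.56) lost its call in 3 of the 6 fits without 1 array. PYCR1 (0.48 to 0.69) lost its call in 4 of the 6 fits without 1 array. ASNS (0.33 to 0.62) lost its call in 6 of the 6 fits without 1 array. The calls of PSPH and ASNS were lost without the replicate block, at adjusted p values from 0.0727 to 0.12. The count of rises with 1 array left out was 3 to 7, moving by over 1.5 times without 24 h replicate 1 (4), untreated replicate 1 (3) and untreated replicate 3 (4). In the amino acid synthesis list 3 falls became 0 without 24 h replicate 1 or 3 or untreated replicate 1 or 3 and 1 without untreated replicate 2.

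Of 45 measured cell cycle genes, 27 fell and 1 rose, the median log2 fold change was -0.56, and 33 were lower in all 3 replicate numbers, as were 28.3% of all genes. TYMS, thymidylate synthase, fell 2.3-fold from 10.20, 9.66 and 10.45 to 8.65, 8.68 and 9.38 (log2 fold change -1.20 ± 0.12, adjusted p 0.000935). TOP2A, the topoisomerase of dividing cells, fell from 10.60, 10.32 and 10.92 to 9.48, 9.66 and 10.19 (log2 fold change -0.84 ± 0.12, adjusted p 0.00335). The mitotic genes CDCA3 (-0.99 ± 0.13, adjusted p 0.00229), CDC20 (-0.94 ± 0.12, adjusted p 0.00194), CDC25B (-1.004 ± 0.15, adjusted p 0.00433) and CCNB2 (-0.84 ± 0.15, adjusted p 0.00932) and the replication genes RRM2 (-0.81 ± 0.15, adjusted p 0.0103) and PCLAF (-0.80 ± 0.14, adjusted p 0.00769) fell by about as much. GADD45B, a stress-induced regulator of growth arrest, was the rise, at 9.56, 9.33 and 9.44 and 10.52, 10.06 and 10.68 (log2 fold change 0.98 ± 0.11, adjusted p 0.00155). The step was largest in replicate number 1, with a list median of -0.83 there against -0.42 and -0.37 in numbers 2 and 3. Without the replicate block 10 members fell and 5 did without replicate number 1, and with 1 array left out the count was 14 to 31, moving by over 1.5 times without 24 h replicate 1 (17) and untreated replicate 1 (14). PCLAF also had a probe set at -0.12 that did not pass. The calls of CDCA3, CDC20 and CDC25B were lost without the replicate block, at adjusted p values from 0.0741 to 0.118. RRM2, CCNB2 and PCLAF were named after their values were seen.

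Of 21 measured enzymes and regulators of cholesterol synthesis, 12 fell and 0 rose (median -0.48), and the list median was -0.42, -0.44 and -0.43 in the 3 replicate numbers. ACAT2, which makes the acetoacetyl-CoA that enters the pathway, fell from 12.22, 12.01 and 12.03 to 11.28, 11.26 and 11.03 (log2 fold change -0.90 ± 0.09, adjusted p 0.000866). FDPS, farnesyl diphosphate synthase, fell from 12.17, 11.96 and 12.17 to 11.32, 11.24 and 11.24 (log2 fold change -0.83 ± 0.08, adjusted p 0.000757). FDFT1, squalene synthase, which uses its product, fell from 12.03, 11.75 and 11.94 to 11.09, 11.09 and 11.11 (log2 fold change -0.81 ± 0.10, adjusted p 0.00164). HMGCS1, the enzyme before the rate-limiting step, fell from 11.88, 11.71 and 11.77 to 10.98, 11.33 and 10.57, lowest in treated replicate 3 (log2 fold change -0.83 ± 0.15, adjusted p 0.00834). The late enzymes TM7SF2 (-0.90 ± 0.09, adjusted p 0.000827) and HSD17B7 (-0.83 ± 0.21, adjusted p 0.0295) fell as well. The groups were separate for these 6 genes. FDFT1 was named after its values were seen. Without untreated replicate 3 the HSD17B7 value was -0.53, still past the threshold. HSD17B7 (-0.94 to -0.60) lost its call in 3 of the 6 fits without 1 array. The call of HSD17B7 was lost without the replicate block, at an adjusted p of 0.0516. The count of falls with 1 array left out was 8 to 10, and it was 9 without the replicate block and 4 without replicate number 1.

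Genes of the interferon response had the lowest median of the 41 lists. Of 29 measured, 19 fell and 0 rose at the threshold, and the median log2 fold change was -0.71. In all 3 replicate numbers 23 were lower, as were 28.3% of all genes. The list median was -0.62, -0.76 and -0.74 in replicate numbers 1, 2 and 3. GBP1, an interferon-induced GTPase, fell 3.97-fold from 8.12, 7.41 and 8.39 to 6.24, 5.75 and 5.96 (log2 fold change -1.99 ± 0.15, adjusted p 0.000279). IFIT1, which binds viral RNA, fell from 9.03, 7.53 and 9.69 to 7.12, 5.55 and 7.81 (log2 fold change -1.93 ± 0.09, adjusted p 7.3e-05). RSAD2, viperin, fell from 10.18, 9.04 and 10.14 to 8.70, 7.13 and 8.21 (log2 fold change -1.77 ± 0.12, adjusted p 0.000221). Replicate number 2 had the lowest level of all 3 genes in both groups, so the groups overlapped for IFIT1 although each replicate number fell by a like amount. DDX58, the RNA sensor RIG-I (-1.47 ± 0.10, adjusted p 0.000213), IFIT3 (-1.25 ± 0.13, adjusted p 0.00106), OAS1 (-1.02 ± 0.11, adjusted p 0.00129), ISG15, a ubiquitin-like modifier (13.38, 12.34 and 13.88 to 12.98, 11.27 and 13.26, -0.70 ± 0.13, adjusted p 0.00973), and the transcription factors IRF1 (-0.90 ± 0.10, adjusted p 0.00114) and IRF7 (-0.87 ± 0.11, adjusted p 0.00236) fell. PSMB8, an immunoproteasome subunit, fell from 9.03, 8.06 and 8.63 to 7.78, 7.23 and 7.48 (log2 fold change -1.07 ± 0.11, adjusted p 0.000892).

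Of the interferon list, 4 members fell at the threshold without the replicate block, whereas 16 did without replicate number 1 and 15 without number 3. IFIT1 also had a probe set at -0.82 that did not pass. The calls of IFIT1, RSAD2, DDX58, IFIT3, OAS1, ISG15, IRF7 and PSMB8 were lost without the replicate block, at adjusted p values from 0.0516 to 0.568, and those of IFIT3, OAS1 and ISG15 were lost too with the replicate number as a random block (adjusted p 0.0607 to 0.238). OAS1, ISG15, IRF1, IRF7 and PSMB8 were named after their values were seen.

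**Figure D3:**
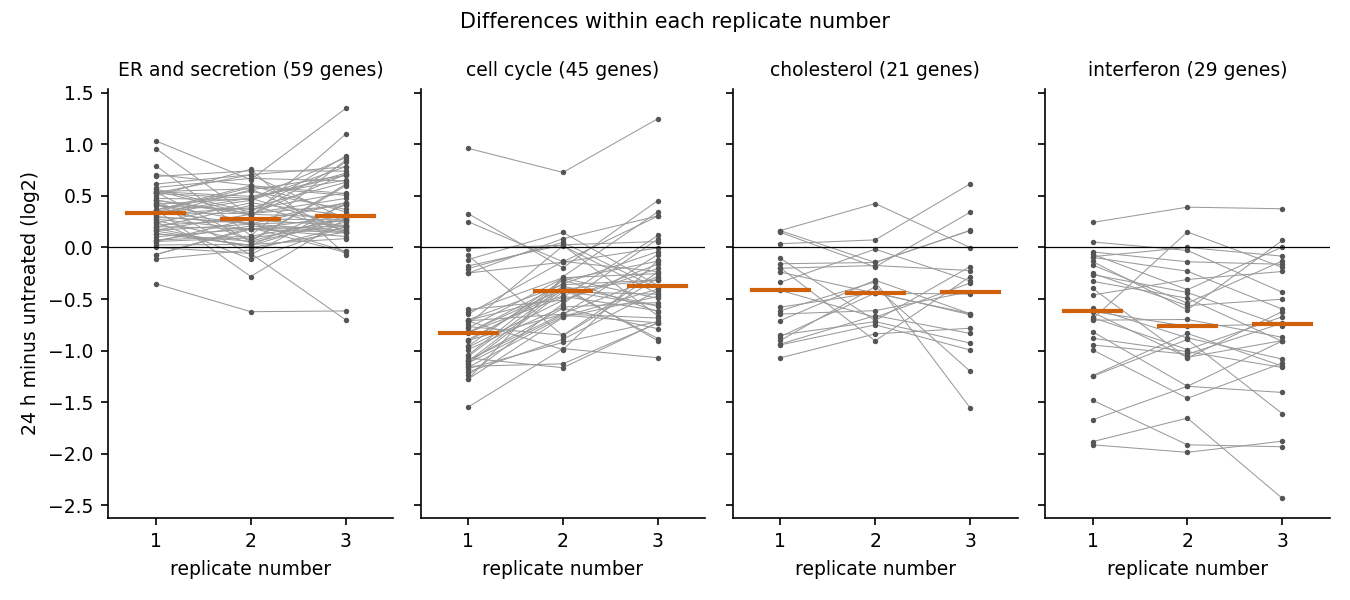
Difference between the 24 h and the untreated array of the same replicate number, on the log2 scale, for every measured member of 4 gene lists, with a grey line joining the 3 values of a gene and an orange bar at the median of each replicate number, which have no order. The medians of the secretory, cholesterol and interferon lists are alike in the 3 replicate numbers (0.33, 0.28 and 0.31 for the first), while that of the cell cycle list is lowest in number 1 (-0.83 against -0.42 and -0.37).

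Complement components and genes of resting fibroblasts had 2 rises and 12 falls among 37 measured (median -0.27). C1R and C1S, the paired proteases that start the classical complement pathway, both fell, C1R from 12.55, 11.88 and 12.46 to 11.36, 10.79 and 11.12 (log2 fold change -1.21 ± 0.09, adjusted p 0.000263) and C1S from 12.62, 12.10 and 12.83 to 11.38, 11.09 and 11.22 (log2 fold change -1.28 ± 0.12, adjusted p 0.000676). SERPING1, the inhibitor of both proteases, fell from 11.10, 10.62 and 11.08 to 10.24, 9.94 and 10.27 (log2 fold change -0.78 ± 0.08, adjusted p 0.00105). C3, the central complement protein (-0.69 ± 0.10, adjusted p 0.00369), and CFD, factor D of the alternative pathway (-0.93 ± 0.14, adjusted p 0.00393), fell with overlapping groups. ANG, angiogenin, a secreted ribonuclease, fell 3.36-fold from 8.83, 8.57 and 9.07 to 7.27, 6.82 and 7.14 (log2 fold change -1.75 ± 0.10, adjusted p 0.000145). PDK4, a kinase that restrains pyruvate oxidation, fell from 6.48, 6.83 and 7.57 to 5.20, 5.21 and 5.71 (log2 fold change -1.59 ± 0.23, adjusted p 0.00344). The 2 rises were AQP3, a channel for water and glycerol, which went from 4.74, 3.64 and 5.24 to 6.33, 5.35 and 7.69, at least 3.66-fold higher (log2 fold change 1.92 ± 0.17, adjusted p 0.000566), and SLPI, a secreted protease inhibitor (0.93 ± 0.22, adjusted p 0.0231). C1R, C1S, SERPING1, C3, CFD and SLPI were named after their values were seen. SLPI (0.69 to 0.92) lost its call in 4 of the 6 fits without 1 array. The calls of C3, CFD and AQP3 were lost without the replicate block, at adjusted p values from 0.114 to 0.302, and that of C3 was lost too with the replicate number as a random block (adjusted p 0.0614). In the complement and fibroblast list 2 rises became 1 without 24 h replicate 1 or 2 or untreated replicate 1 or 3.

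Of 23 antioxidant and redox genes, 14 fell and 1 rose (median -0.45). SOD2, the mitochondrial superoxide dismutase, fell 3.06-fold from 12.62, 12.66 and 13.15 to 10.82, 11.17 and 11.59 (log2 fold change -1.61 ± 0.09, adjusted p 0.000124). MGST1, a microsomal glutathione transferase, fell from 12.61, 12.37 and 12.60 to 11.14, 10.93 and 10.49 (log2 fold change -1.67 ± 0.14, adjusted p 0.000406). CAT, catalase, fell from 11.24, 11.07 and 11.88 to 10.26, 10.41 and 10.14 (log2 fold change -1.12 ± 0.18, adjusted p 0.00573). SOD3, the extracellular superoxide dismutase (-0.95 ± 0.09, adjusted p 0.000796), the glutathione peroxidases GPX1 (13.21, 12.92 and 12.99 to 12.22, 12.10 and 12.07, -0.91 ± 0.09, adjusted p 0.000772) and GPX3 (-1.23 ± 0.22, adjusted p 0.00886), NQO1, a quinone reductase (-0.84 ± 0.09, adjusted p 0.00117), and HMOX1, heme oxygenase 1 (-0.70 ± 0.19, adjusted p 0.038), fell as well. GPX7, a peroxidase of the endoplasmic reticulum, was the rise, from 9.95, 9.99 and 9.91 to 10.79, 10.51 and 10.77 (log2 fold change 0.74 ± 0.11, adjusted p 0.0035). The groups were separate for all of these except HMOX1, whose untreated replicate 3 array was high. Without that array its value was -0.45 and not past the threshold. GPX1, NQO1, HMOX1 and GPX7 were named after their values were seen. GPX7 also had a probe set at -0.03 that did not pass. HMOX1 (-0.81 to -0.45) lost its call in 5 of the 6 fits without 1 array. The calls of SOD3 and HMOX1 were lost without the replicate block, at adjusted p values from 0.0841 to 0.31, and that of HMOX1 was lost too with the replicate number as a random block (adjusted p 0.0898). The count of falls with 1 array left out was 9 to 12, moving by over 1.5 times without untreated replicate 3 (9). It was 7 without the replicate block and 6 without replicate number 1.

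Lists of central energy metabolism had medians near 0. Glycolysis and hypoxia genes had 1 rise (3.33%), VEGFA, and 7 falls (23.3%) among 30 (median -0.03). The oxidative phosphorylation and citric acid cycle list had 3 rises (8.11%) and 2 falls (5.41%) among 37 (median -0.03). Of all genes 10.1% rose and 13.0% fell. GPD1L, a glycerol phosphate dehydrogenase-like enzyme, fell 2.85-fold from 7.79, 7.81 and 8.58 to 6.45, 6.36 and 6.84 (log2 fold change -1.51 ± 0.14, adjusted p 0.000676). EPAS1, the hypoxia-inducible factor HIF-2α, fell from 8.31, 8.89 and 9.15 to 7.71, 7.90 and 8.26 (log2 fold change -0.83 ± 0.10, adjusted p 0.00153). CYCS, cytochrome c, rose from 9.89, 10.16 and 9.65 to 10.59, 11.09 and 10.50 (log2 fold change 0.82 ± 0.11, adjusted p 0.0024). MDH2 (0.37 ± 0.09, adjusted p 0.0283) and IDH3A (0.36 ± 0.10, adjusted p 0.0408), of the citric acid cycle, were the other rises, and COX7A1, a muscle-type cytochrome oxidase subunit (-0.60 ± 0.14, adjusted p 0.0218), and SDHC (-0.35 ± 0.10, adjusted p 0.0495) the falls. COX7A1 lost its call without untreated replicate 1 (-0.65) and untreated replicate 3 (-0.44). MDH2 (0.30 to 0.37) lost its call in 4 of the 6 fits without 1 array. IDH3A (0.27 to 0.40) and SDHC (-0.42 to -0.26) lost their calls in 5 of the 6 fits without 1 array. The calls of EPAS1, MDH2, IDH3A, COX7A1 and SDHC were lost without the replicate block, at adjusted p values from 0.0514 to 0.136. Without replicate number 3 the COX7A1 value was -0.38. In the oxidative phosphorylation list 3 rises became 1 without 24 h replicate 2 or 3 or untreated replicate 3, and 2 falls became 0 without untreated replicate 1 or 3 and 1 without 24 h replicate 1, 2 or 3. In the glycolysis list 1 rise became 3 without 24 h replicate 2 or untreated replicate 2.

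Receptors, channels and enzymes of vasoactive signalling had 4 rises (12.5%) and 8 falls (25%) among 32 (median -0.22). Of all genes 10.1% rose and 13.0% fell. KCNMA1, the large-conductance calcium-activated potassium channel, rose 3.15-fold from 4.90, 5.06 and 4.80 to 6.86, 6.12 and 6.75 (log2 fold change 1.65 ± 0.17, adjusted p 0.00103). HTR2A, a serotonin receptor, rose from 5.41, 5.53 and 4.93 to 6.60, 5.999 and 6.70 (log2 fold change 1.14 ± 0.23, adjusted p 0.0129). S1PR1, a receptor for sphingosine 1-phosphate, fell 3.83-fold from 10.84, 10.92 and 9.90 to 9.03, 8.996 and 7.83 (log2 fold change -1.94 ± 0.08, adjusted p 6.86e-05), and its 2 other probe sets fell by 2.08 and 2.13 on the log2 scale. OXTR, the oxytocin receptor, fell in every replicate number with overlapping groups, at least 2.53-fold (-1.54 ± 0.20, adjusted p 0.00234). HTR2A lost its call without untreated replicate 1 (1.05) and untreated replicate 3 (0.92). The call of OXTR was lost without the replicate block, at an adjusted p of 0.106. The number of rises with 1 array left out was 2 to 5, moving by over 1.5 times without untreated replicate 1 (2) and untreated replicate 3 (2).

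The labelled cell type was set against its markers. None of the 12 measured markers of VICs and fibroblasts lay under the control level in both groups, and their mean over the list was 11.93 to 12.23 on the untreated and 11.69 to 11.80 on the treated arrays, with 1 rise and 6 falls. S100A4, a calcium-binding protein of fibroblasts, fell 2.52-fold from 12.78, 11.75 and 12.68 to 11.64, 10.46 and 11.11 (log2 fold change -1.33 ± 0.10, adjusted p 0.000287), and THY1, a surface glycoprotein of fibroblasts, fell with overlapping groups (-0.55 ± 0.09, adjusted p 0.00549). The 4 lymphocyte markers lay under the control level in both groups, as did 6 of 8 adipocyte and 2 of 6 muscle markers, and CLDN4 and WT1, the epithelial and mesothelial markers measured, did not pass. HBB, the haemoglobin β chain, read 8.19, 8.08 and 8.06 without and 8.08, 8.25 and 7.99 with TGF-β1 and did not pass (log2 fold change 0.00 ± 0.11, adjusted p 0.996). S100B, a glial protein, was the neural marker that fell (-0.78 ± 0.11, adjusted p 0.00306). THY1 also had probe sets at -0.23 and -0.16, none past the threshold. The calls of S100A4, THY1 and S100B were lost without the replicate block, at adjusted p values from 0.0711 to 0.324, and those of THY1 and S100B were lost too with the replicate number as a random block (adjusted p 0.0508 to 0.0713). In the VIC and fibroblast marker list 1 rise became 0 without 24 h replicate 1, 2 or 3 or untreated replicate 2 or 3.

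Endothelial markers were present in these cultures and differed between replicate numbers. CDH5, the endothelial cadherin, read 9.96, 10.79 and 6.72 in untreated and 9.80, 10.18 and 6.85 in treated arrays, so replicate number 3 was lower than the others in both groups (log2 fold change -0.21 ± 0.14, adjusted p 0.324). The 20 measured endothelial markers had a mean level of 6.04 to 7.51 over the untreated and 5.84 to 7.08 over the treated arrays, with VWF, SELE, FLT1 and LYVE1 under the control level, and 3 rose and 7 fell (median -0.30). PECAM1, an adhesion molecule of endothelial junctions, fell 3.03-fold from 10.54, 10.93 and 8.67 to 8.88, 9.29 and 7.17 (log2 fold change -1.60 ± 0.10, adjusted p 0.00018), and each replicate number fell although the groups overlapped. CLDN5, the endothelial claudin, fell from 8.37, 8.23 and 5.15 to 5.30, 5.51 and 4.64 with overlapping groups (log2 fold change -2.10 ± 0.42, adjusted p 0.0136). LMO2 (-1.29 ± 0.12, adjusted p 0.000709), SELP, P-selectin (-1.06 ± 0.13, adjusted p 0.0017), and NOS3, the endothelial nitric oxide synthase (-0.64 ± 0.09, adjusted p 0.00373), fell. ERG, an endothelial transcription factor, rose 2.8-fold from 8.67, 8.87 and 7.71 to 9.9999, 9.58 and 10.13 (log2 fold change 1.49 ± 0.28, adjusted p 0.0111), and CD93 (0.97 ± 0.19, adjusted p 0.0114) and ENG rose too.

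The share of the whole-culture changes that lies in endothelial-type cells was not tested. Without replicate number 3, 2 endothelial markers rose and 7 fell, and without the replicate block 0 fell and 2 rose. CDH5, CD93, ENG and NOS3 were named after their values were seen. CD93 lost its call without 24 h replicate 1 (0.92) and untreated replicate 1 (0.93). CLDN5 (-1.88 to -1.69) lost its call in 4 of the 6 fits without 1 array. The calls of PECAM1, CLDN5, LMO2, SELP and NOS3 were lost without the replicate block, at adjusted p values from 0.187 to 0.516, and those of LMO2, SELP and NOS3 were lost too with the replicate number as a random block (adjusted p 0.0547 to 0.184). The 20 measured macrophage and monocyte markers had a mean level of 6.50 to 7.15 over untreated and 6.24 to 6.79 over treated arrays, none under the control level, and 6 fell while 0 rose. CD14, a co-receptor for bacterial lipopolysaccharide (7.45, 7.22 and 7.10 to 6.52, 6.52 and 6.55, -0.73 ± 0.10, adjusted p 0.00274), MRC1, the mannose receptor (-0.83 ± 0.11, adjusted p 0.00258), and SLA-DMA, a class II antigen-loading protein (-0.90 ± 0.09, adjusted p 0.000796), were among the falls. CD14 also had a probe set at -0.03 and SLA-DMA at -0.37, none past the threshold. The part of these markers in the falls of the chemokine, complement and interferon genes was not tested.

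**Figure D4:**
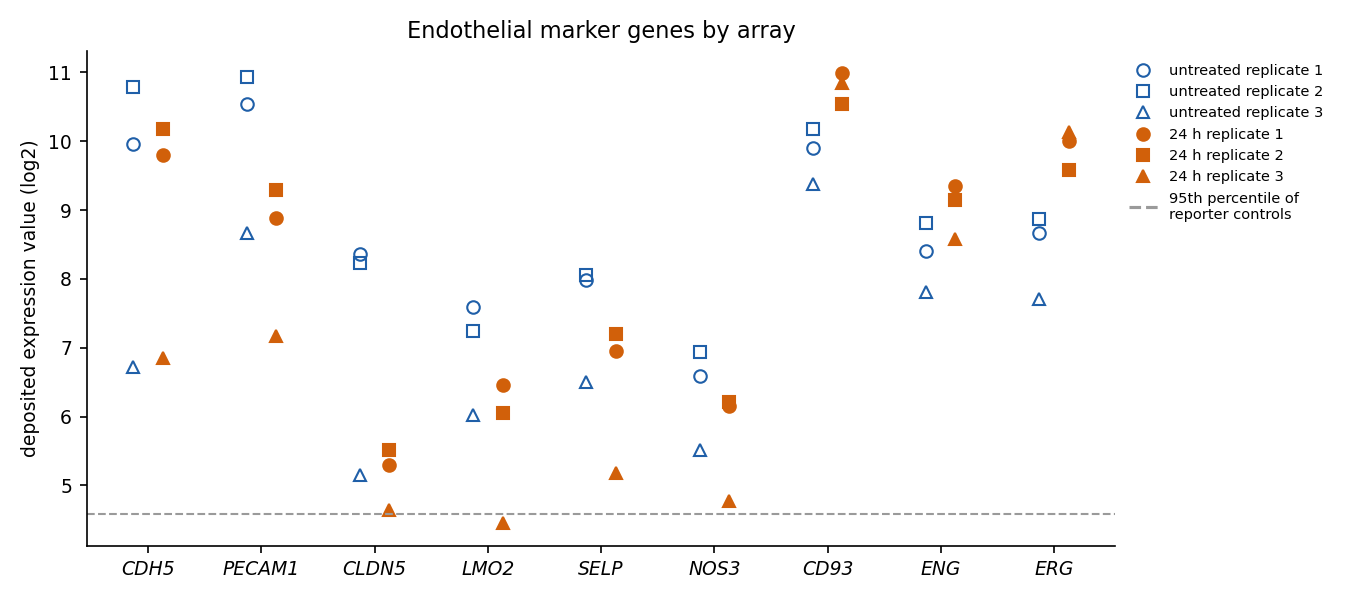
Deposited log2 values of 9 endothelial marker genes on the 3 untreated arrays (open blue) and the 3 TGF-β1 24 h arrays (filled orange), with circles, squares and triangles for replicate numbers 1, 2 and 3 and a dashed line at the control level of 4.58. The triangles lie lowest in both groups for CDH5, PECAM1, CLDN5, LMO2, SELP and NOS3, and CDH5 reads 6.72 and 6.85 in replicate number 3 against 9.80 to 10.79 in the others.

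The 24 h arrays were also set against the 3 arrays of 8 h exposure to ask which differences changed between the exposures. At 24 h 198 probe sets were higher and 232 lower than at 8 h (2.44% of those tested), but without the replicate block 9 and 11 were, and of the 6014 genes 51 (0.848%) were higher and 111 (1.85%) lower. The 8 h and 24 h effects share the untreated arrays, so their values are given side by side and only the direct difference is tested. LIF read 6.55, 6.47 and 7.19 at 8 h against 8.06, 7.71 and 8.54 at 24 h (log2 difference 1.37 ± 0.18, adjusted p 0.0166). ASPN read 11.74, 11.24 and 11.71 and then 12.97, 12.58 and 12.77 (log2 difference 1.21 ± 0.09, adjusted p 0.00216), above its untreated values of 11.28, 10.74 and 11.15. IGFBP5 read 7.22, 7.40 and 7.11 at 8 h and rose further (log2 difference 1.12 ± 0.17, adjusted p 0.024), as did C1QTNF3 at 8.76, 8.17 and 8.13 (log2 difference 1.15 ± 0.15, adjusted p 0.0145). PDGFRL, a receptor-like secreted protein, read 10.19, 9.48 and 9.89 untreated, 10.11, 9.52 and 9.59 at 8 h and 11.43, 10.48 and 10.64 at 24 h, and its difference lay between the 2 exposures (log2 difference 1.11 ± 0.11, adjusted p 0.00831). HTR1D went from 3.63, 4.50 and 3.46, under the control level, to its 24 h values, at least 1.71-fold higher (fitted log2 difference 1.50 ± 0.18, adjusted p 0.0126).

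PPL had the largest further fall, from 7.84, 6.37 and 7.93 at 8 h to 5.27, 4.14 and 5.75 at 24 h (log2 difference -2.32 ± 0.10, adjusted p 0.000652). CLDN11 read 8.06, 8.32 and 8.98 at 8 h, near its untreated values of 8.43, 8.67 and 9.08, and 6.48, 6.42 and 7.20 at 24 h (log2 difference -1.75 ± 0.10, adjusted p 0.00157). ANG and RNASE4, both ribonucleases of the RNase A family, fell between the 2 exposures, ANG from 8.67, 8.23 and 8.46 at 8 h (log2 difference -1.38 ± 0.10, adjusted p 0.00218) and RNASE4 from 11.75, 11.11 and 12.03 to 10.37, 9.996 and 10.66 (log2 difference -1.29 ± 0.11, adjusted p 0.00336). RNASE4 had read 12.01, 11.38 and 12.54 without TGF-β1. SLC1A3, a glutamate transporter, read 5.70, 5.29 and 6.13 untreated, 5.58, 5.69 and 6.41 at 8 h and 4.71, 4.36 and 4.59 at 24 h, at least 2.48-fold lower since its 24 h mean was just under the control level (fitted log2 difference -1.34 ± 0.17, adjusted p 0.0146). VCAM1 was midway at 8 h, at 12.55, 12.34 and 12.64 (log2 difference -1.51 ± 0.25, adjusted p 0.0282), and so was FGL2, at 8.14, 7.73 and 7.72 (log2 difference -1.56 ± 0.17, adjusted p 0.00908).

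ENO3, MAP1A and ABCB1 had their highest or lowest values at 8 h. ENO3, the muscle enolase, read 6.57, 6.47 and 7.74 untreated, 8.11, 7.24 and 9.97 at 8 h and 6.01, 5.90 and 7.06 at 24 h (log2 difference -2.12 ± 0.27, adjusted p 0.0145), and its 24 h and untreated groups overlapped (log2 fold change -0.60 ± 0.27, adjusted p 0.163), although each replicate number was lower at 24 h than untreated, with differences of -0.56, -0.57 and -0.69, and a fit of these 2 groups alone called the fall (-0.60, adjusted p 0.0273). MAP1A, a microtubule-associated protein, read 9.06, 9.30 and 9.77 untreated, 8.01, 7.96 and 8.40 at 8 h and 9.08, 8.57 and 9.69 at 24 h, lowest at 8 h (log2 difference 0.99 ± 0.16, adjusted p 0.025). ABCB1, the drug efflux pump, read 7.83, 8.19 and 7.29 untreated, 7.19, 7.66 and 6.52 at 8 h and 8.33, 8.11 and 8.13 at 24 h, likewise lowest at 8 h (log2 difference 1.06 ± 0.20, adjusted p 0.0402). Against untreated cells ABCB1 did not pass at 24 h (log2 fold change 0.42 ± 0.20, adjusted p 0.183), but it did without 24 h replicate 2 (0.70, adjusted p 0.0204). SMAD3 read 6.08, 6.56 and 6.32 at 8 h, below its untreated and 24 h values, with a 24 h against 8 h difference just short of the threshold (log2 difference 0.54 ± 0.11, adjusted p 0.0541). By contrast, PMEPA1 at 13.39, 13.43 and 13.73 and CSRP2 at 12.80, 13.02 and 12.20 differed little between the exposures, with log2 differences of 0.06 (SE 0.28) and -0.02 (SE 0.09) between the exposures.

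These differences between the exposures depended on single arrays and on the block. Of the 54 named genes called between 24 h and 8 h, 2 kept the call without the replicate block, ANG and FGL2, and 31 kept it with the replicate number as a random block. With 1 of the 6 arrays of either exposure left out, 8 to 44 of the 54 kept it, fewest without 8 h replicate 1, and 7 kept it in each of these fits, namely AMCF-II, ANG, ASPN, CLDN11, PPL, RNASE4 and SOD2. Without replicate number 1 or number 2, limma called 0 probe sets between the exposures, where 879 higher and 919 lower, and 1796 higher and 1302 lower, had an unadjusted p under 0.05. No difference of the 54 genes changed sign in any of these fits.

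The lists were also counted at both exposures, beside 6.15% of all genes higher and 8.03% lower at 8 h against untreated cells. In the secretory list 11 members had risen at 8 h against 30 at 24 h, with medians of 0.19 and 0.33. In the cell cycle list 3 had fallen at 8 h and 27 at 24 h (medians -0.15 and -0.56). The interferon list had 11 and 19 falls (medians -0.34 and -0.71), and 10 of its members were lower at 24 h than at 8 h by the direct test. The cholesterol list had 10 and 12 falls (medians -0.35 and -0.48). Of collagen chains 0 had risen at 8 h and 5 at 24 h. By the direct test COL5A3 and COL1A2 were higher at 24 h than at 8 h and COL3A1, on its dim probe set, was lower. None of these list counts was tested between times, and the direct test called 0 secretory and 3 cell cycle members.

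**Figure D5:**
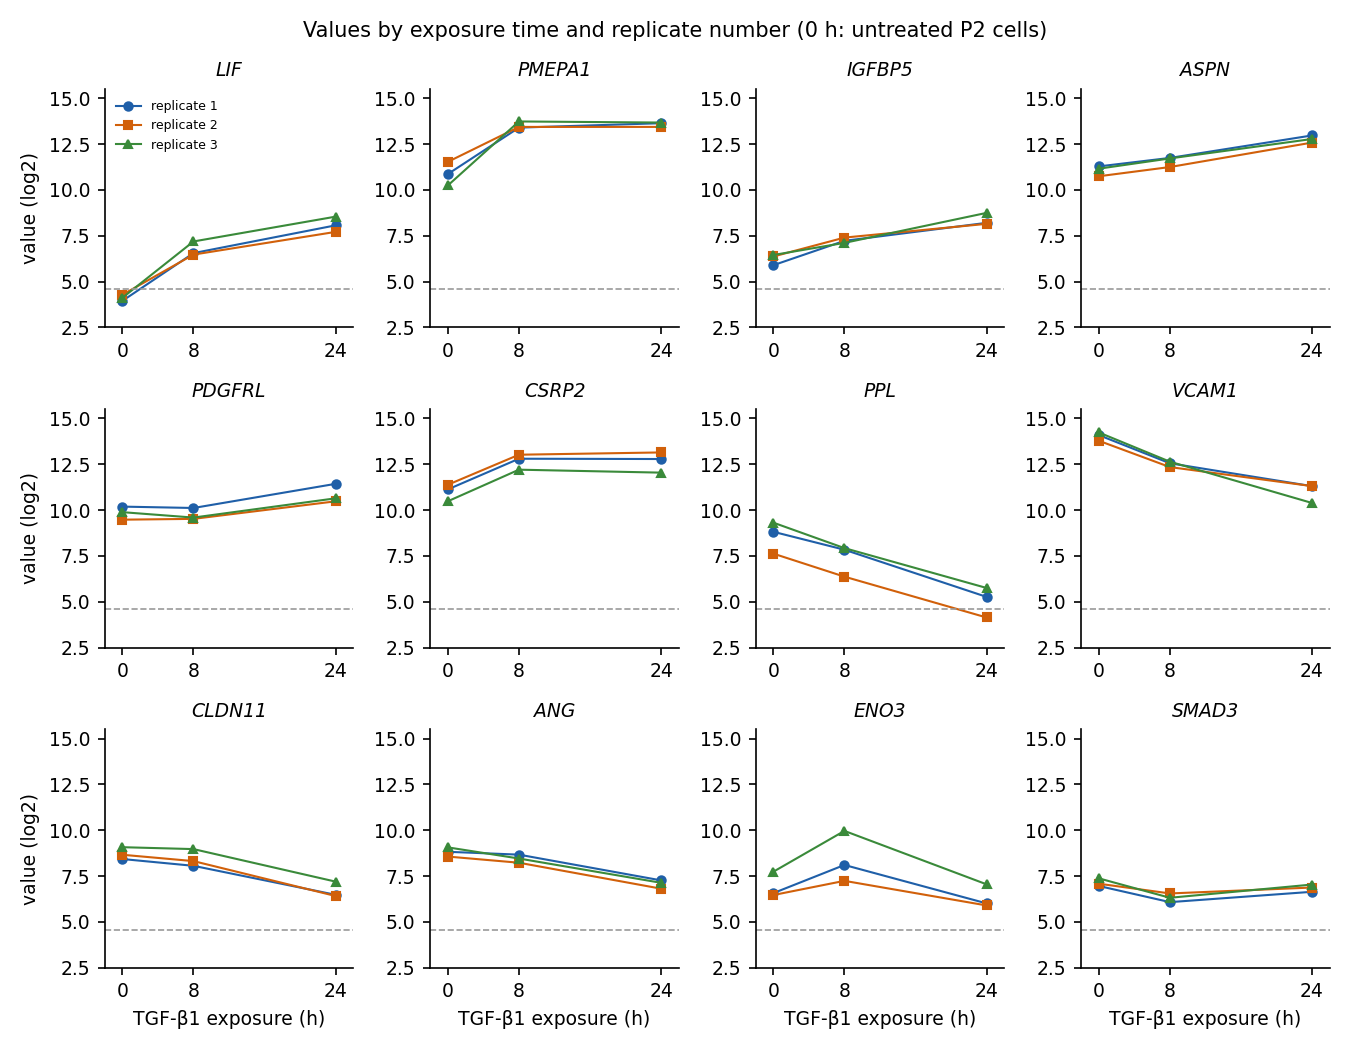
Deposited log2 values of 12 genes at 0 h (untreated P2 cells), 8 h and 24 h of TGF-β1, with 1 line for each replicate number, and a dashed line at the control level of 4.58. LIF, IGFBP5 and ASPN climb at both steps, PPL and VCAM1 descend at both, CLDN11 and ANG descend mostly between 8 h and 24 h, and ENO3 peaks at 8 h (7.24 to 9.97) in each replicate number.

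Of 16 measured osteogenic and chondrogenic genes, 2 rose (12.5%) and 1 fell (6.25%), beside 10.1% and 13.0% of all genes. CHI3L1, a chitinase-like glycoprotein, rose from 10.79, 11.36 and 9.23 to 11.82, 12.33 and 9.97 with overlapping groups (log2 fold change 0.91 ± 0.14, adjusted p 0.00522), MGP, an inhibitor of calcification, rose by a small step (0.31 ± 0.09, adjusted p 0.0424), and the fall was SPP1. Immediate-early and heat shock genes had 6 rises (18.2%) and 4 falls (12.1%) among 33. BTG2 (0.66 ± 0.16, adjusted p 0.0263) and PPP1R15A (0.53 ± 0.08, adjusted p 0.00392) were among the rises and JUN (-0.54 ± 0.16, adjusted p 0.0458) among the falls. ANKRD1, a muscle ankyrin protein often used as a YAP target, fell 2.5-fold from 9.51, 10.07 and 7.07 to 7.97, 8.26 and 6.46 (log2 fold change -1.32 ± 0.21, adjusted p 0.00494), while RHOU (0.63 ± 0.11, adjusted p 0.00671) and CDC42EP5 (0.59 ± 0.12, adjusted p 0.0124) rose and PARVA (-0.47 ± 0.09, adjusted p 0.0109) fell. Receptor kinase and PI3-kinase genes had 0 rises and 3 falls (18.8%) among 16. The falls were FGFR1 (-0.51 ± 0.09, adjusted p 0.00986), SGK1 (-0.57 ± 0.11, adjusted p 0.0126) and PIK3IP1, an inhibitor of PI3-kinase (7.57, 7.44 and 7.34 to 6.82, 6.79 and 6.15, -0.86 ± 0.13, adjusted p 0.00376). RHOU also had a probe set at 0.40, FGFR1 at -0.37 and PIK3IP1 at -0.58, none past the threshold. CDC42EP5 lost its call without 24 h replicate 1 (0.57) and untreated replicate 1 (0.57) and SGK1 lost its call without untreated replicate 3 (-0.49). BTG2 (0.49 to 0.64) lost its call in 4 of the 6 fits without 1 array. MGP (0.24 to 0.34) and JUN (-0.63 to -0.35) lost their calls in 5 of the 6 fits without 1 array. The calls of CHI3L1, MGP, BTG2, PPP1R15A, JUN, ANKRD1, RHOU, CDC42EP5, PARVA, FGFR1 and SGK1 were lost without the replicate block, at adjusted p values from 0.0508 to 0.509, and those of CHI3L1, MGP, ANKRD1, FGFR1 and SGK1 were lost too with the replicate number as a random block (adjusted p 0.0593 to 0.179). Without replicate number 3 the BTG2 value was 0.43, and without number 2 the JUN value was -0.31. In the immediate-early and heat shock list 6 rises became 3 without 24 h replicate 1 or untreated replicate 1 or 3, and 4 falls became 1 without 24 h replicate 1 or untreated replicate 1 and 2 without 24 h replicate 2 or untreated replicate 2. In the osteogenic list 2 rises became 1 without 24 h replicate 1 or 2 or untreated replicate 1, 2 or 3, and 1 fall became 0 without any 1 of the 6 arrays.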

How the data were processed

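Expression was measured on Affymetrix porcine arrays in 12 samples, of which the 9 P2 arrays were fitted. The deposited values are log2 expression values made by the authors with GCRMA, per the submitters' processing notes (version not given in the sources used here). That method subtracts a background modelled from probe sequence, quantile normalises the arrays and summarises the probes of a set, so values near the bottom of the scale are compressed and values near its top may be saturated. Of 23999 probe sets, the 17638 over log2 4 on at least 3 of the 12 arrays were tested. Arrays carry no counting depth, and precision is limited by 3 arrays in a group, with a median standard error of 0.11.

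From these values limma 3.58.1 in R 4.3.3 was fitted to the untreated, 8 h and 24 h P2 arrays together, with the replicate number as a fixed block and no further normalisation (lmFit, eBayes, two-sided, 4 residual and 3.54 prior degrees of freedom). Adjusted p-values are Benjamini-Hochberg values over the 17638 probe sets, and a result was called at an adjusted p under 0.05. The labels give the replicate numbers but not what they share. They were taken as pairing the arrays because all 9 same-numbered pairs had correlated deviations of over 0.1. Each gene was read from the probe set with 1 symbol and the highest mean over the 12 arrays, since 13732 probe sets had no symbol and 198 had several in the platform annotation. The script was tested on simulated data.

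The genes named are the 12 largest rises and 12 largest falls that were called with separate groups, up to 5 called members with the largest changes in each list (the 2 lowest p-values where none was called), a panel of 28 genes of which 19 were measured, and the 8 largest changes each way between 24 h and 8 h. The 57 genes added later are marked in the text as named after their values were seen. The members and lists were chosen with earlier results of these data known. The alternatives tried were no block, a random block, the 2 groups alone, all 12 arrays, other filters, centring, quantile normalisation, an intensity trend with a robust prior, other probe sets, and leaving out each array or replicate number. List counts, the genes added later and the single genes of 24 h against 8 h were recomputed under these alternatives, as decided after the data were seen. No sequence was used here.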

Additional observations from a re-analysis of the deposited data

Results flagged for a closer look

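The effect of 24 h of TGF-β1 differed from that of 8 h in 54 of the genes named, with 16 higher and 38 lower at 24 h. The direct test between the exposures in limma was used, at an adjusted p under 0.05. The genes named were 180 taken by rule and 57 added after their values were seen. Some were named for their change in this same test, so the count of 54 partly reflects the choice. Of all 6014 genes 0.848% were higher and 1.85% lower at 24 h than at 8 h. Values in parentheses are log2 differences, 24 h minus 8 h, over 3 arrays of each. Only 2 of the 54 calls, those of ANG and FGL2, held without the replicate block, and 7 held with each single array of the exposures left out. The 8 h mean of HTR1D and the 24 h mean of SLC1A3 lay under the control level, so their fitted differences are no bound, and the change was at least 1.71-fold and 2.48-fold. Higher at 24 h were HTR1D (1.50), LIF (1.37), ASPN (1.21), C1QTNF3 (1.15), IGFBP5 (1.12), PDGFRL (1.11), ABCB1 (1.06), MAP1A (0.99), COL5A3 (0.99), KCNMA1 (0.97), PCOLCE2 (0.92), TNC (0.82), FOXS1 (0.78), ITGAV (0.56), COL1A2 (0.47) and CDH11 (0.45). Lower at 24 h by at least 1 log2 unit were PPL (-2.32), ENO3 (-2.12), CLDN11 (-1.75), FGL2 (-1.56), VCAM1 (-1.51), ANG (-1.38), SLC1A3 (-1.34), RNASE4 (-1.29), AMCF-II (-1.18), EPHX1 (-1.12), ANKRD1 (-1.10), SOD2 (-1.09), GBP1 (-1.08), S100A4 (-1.05), SPARCL1 (-1.05), C1S (-1.02) and ACVR1B (-1.003). A second set of genes was lower by less, namely CCL8 (-0.99), ADM (-0.97), COL3A1 (-0.93, on a dim probe set), MGST1 (-0.91), DDX58 (-0.89), PECAM1 (-0.88), IFIT1 (-0.88), C1R (-0.82), RSAD2 (-0.79) and TYMS (-0.76). The smallest falls between the exposures were those of PSMB8 (-0.67), FBLN1 (-0.63), OAS1 (-0.62), GPX1 (-0.61), SOD3 (-0.60), S1PR1 (-0.57), TM7SF2 (-0.57), ACAT2 (-0.55), FDPS (-0.54), NQO1 (-0.54) and SERPINE2 (-0.48). Groups of 3 arrays are too small for a test of single outlying arrays.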

How the results depend on the processing

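Against untreated cells, 656 probe sets were higher and 633 lower without the replicate block, 684 and 869 with only the 2 groups and the block, and 754 and 744 with all 12 arrays and no block, beside 1723 and 1796. The other settings with all arrays stayed within 1.5 times of those counts. Leaving out 1 array or 1 replicate number gave 338 to 1481 higher and 523 to 1420 lower, lowest without replicate number 1, when 39.3% of the calls were rises against 49.0% with all arrays. The counts of at least 2-fold changes stayed within 1.5 times under every alternative run. For 24 h against 8 h, 198 higher and 232 lower became 9 and 11 without the replicate block, 122 and 119 with a random block, 97 and 121 with the 2 groups alone, 25 and 16 with all 12 arrays and no block, 79 and 127 with no filter, 377 and 383 with a filter at log2 6, and 481 and 456 with the intensity trend and robust prior. Leaving out 1 array or 1 replicate number gave 0 to 246 higher and 0 to 189 lower, a setting added after the data were seen. The cause of these differences was not tested. Of 161 called genes named by the rule, 125 kept the call with each single array left out, 85 with each replicate number left out and 84 in the 9 other settings, and none changed sign in these. Of these, 68 were lost without the block, 56 with all 12 arrays and no block, 36 with only the 2 groups, 18 with a random block and 73, 38 and 37 without replicate numbers 1, 2 and 3. The sign of HBB and VCAN, neither called, turned with 1 array or number left out, from -0.11 to 0.064 and from -0.027 to 0.24. Other probe sets of a gene gave an opposite sign for KCNE1 (0.086), COL5A1 (-0.054), LOX (-0.032), TPM2 (0.046), BHLHE40 (-0.20), VCAN (-0.012 and -0.011), MAP1A (0.13) and GPX7 (-0.032), with no test past the threshold. Signal near or under the control level of 4.58 limits what can be said of dim probe sets, 90 of which were called with both group means under it.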
